A study of Mus musculus with 54 samples.

Results

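Matrix metalloproteinases (MMPs) and tissue inhibitors of metalloproteinases (TIMPs) were followed through 15 conditions of mouse peritoneal macrophages. The 9 genes were taken by symbol from the 39179 genes counted: 6 MMPs (Mmp8, Mmp9, Mmp12, Mmp13, Mmp14 and Mmp19) and 3 inhibitors (Timp1, Timp2 and Timp3). All 9 passed the filter on low counts in both experiments. Macrophages were the adherent fraction of peritoneal exudate cells of C57BL/6 mice aged 8 to 20 weeks, collected 4 days after thioglycolate. In the polarization experiment, cells of 3 mice were left unstimulated (M0), given 100 ng/ml LPS with 50 ng/ml IFNγ (M1-like) or given 10 ng/ml IL-4 (M2-like) for 24 h, and 2 technical libraries per mouse and condition were added up. The reprogramming experiment held 12 conditions with 3 replicates each. Untransfected M0, M1-like and M2-like cells stood beside mock cells of the same 3 kinds, which received the transfection reagent alone. The other 6 conditions were M2-like cells with a negative siRNA pool, with a pool against E2f1, Myc, Pparg or Stat6, or with the combined pool against these 4 genes, called iM1. M2-like cells were transfected after 24 h with IL-4 and cultured on without it, and RNA was taken 48 h after transfection. When the untransfected cells of this experiment were harvested was not given in the sources used here. The paper's methods on RNA extraction and quantitative PCR list 3 biological replicates for iM1 and for unstimulated and polarized cells. They do not say whether these were separate animals, and the sequencing methods state no replicates. Replicates of a reprogramming condition differed by 4.48 to 22.97 in chi-square per gene. In the polarization experiment this was 1.07 to 1.10 between technical libraries and 3.63 to 52.4 between mice. The p-values of the reprogramming experiment measure the spread between its samples, and the source of that spread was not tested.

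MMPs are zinc-dependent endopeptidases that cleave matrix proteins, cytokines and proteins at the cell surface. Most are secreted as inactive precursors, while Mmp14 is anchored in the plasma membrane and activates other members. TIMPs bind the active site and block it, and Timp2 also takes part in the activation of a precursor by Mmp14 at the cell surface. Mmp12 is the macrophage elastase, Mmp8 and Mmp13 are collagenases, Mmp9 is a gelatinase and Mmp19 is a secreted enzyme active on basement membrane components.

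Between 19714994 and 29880494 reads were counted per library in the polarization experiment and between 13421854 and 19704195 in the reprogramming experiment. The 6 macrophage markers were detected in every condition and summed to at least 6162 CPM (read counts scaled by library size). Of the 10 neutrophil markers, of interest because neutrophils store Mmp8 and Mmp9, the sum was at most 14.4 CPM. Ly6g was at 0 in all 12 reprogramming conditions and in M0 and M2-like cells at 24 h. M1-like cells at 24 h did have Ly6g reads. The 6 fibroblast markers (Col1a1, Col1a2, Col3a1, Dcn, Lum and Pdgfra) summed to 9.40 to 34.3 CPM after 24 h and to 22.2 to 449 CPM in the reprogramming experiment. Each single pool left its target below the negative pool, E2f1 at 25.2% ± 4.05 of that level (SD, n = 3), Myc at 38.0% ± 8.01, Pparg at 21.9% ± 2.57 and Stat6 at 27.3% ± 5.79. Under the combined pool these were 60.4% ± 2.01, 39.6% ± 3.20, 28.3% ± 2.25 and 54.0% ± 4.82.

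On GRCm38, 3 members lay within a run of 10 MMP genes on chromosome 9, between 7272514 and 7699585: Mmp13 (chr9:7272514-7283331), Mmp12 (chr9:7344381-7369499) and Mmp8 (chr9:7558456-7568485), all on the plus strand. The others were Mmp9 (chr2:164940780-164955850), Mmp14 (chr14:54431612-54445364), Mmp19 (chr10:128790910-128800824), Timp1 (chrX:20870166-20874735) and Timp3 (chr10:86300372-86349506) on the plus strand and Timp2 (chr11:118301069-118355740) on the minus strand. Exons of Mmp12, Mmp19 and Timp3 overlapped exons of a gene on the opposite strand, and the use of strand in counting was not given in the sources used here. The condition means of these partners were at most 0.0697 CPM for Mmp1b (beside Mmp12), 14.0 CPM for Tmem198b (beside Mmp19) and 0.476 CPM for Syn3 (beside Timp3). Timp1 lay in an intron of Syn1, whose means ran from 0.575 to 11.96 CPM, so reads of low Timp1 are uncertain in this respect.

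RefSeq promoter sequences were matched for 7 of the 9 members, and none was used for Mmp9 and Mmp19. The 250 bases before the start site are shown for the chromosome 9 neighbours Mmp12 and Mmp13, lower in M1-like cells than after IL-4, and for the members that were higher, Mmp14 and Timp1. They run 5′ to 3′ on the plus strand of GRCm38.p6, from chr9:7344147-7344396 (Mmp12), chr9:7272264-7272513 (Mmp13), chr14:54431348-54431597 (Mmp14) and chrX:20869916-20870165 (Timp1), with motif matches in capitals.
Mmp12: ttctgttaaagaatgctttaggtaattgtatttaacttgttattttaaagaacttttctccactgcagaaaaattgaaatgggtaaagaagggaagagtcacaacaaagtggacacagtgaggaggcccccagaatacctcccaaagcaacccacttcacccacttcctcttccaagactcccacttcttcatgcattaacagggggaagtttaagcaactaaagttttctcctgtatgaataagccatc
Mmp13: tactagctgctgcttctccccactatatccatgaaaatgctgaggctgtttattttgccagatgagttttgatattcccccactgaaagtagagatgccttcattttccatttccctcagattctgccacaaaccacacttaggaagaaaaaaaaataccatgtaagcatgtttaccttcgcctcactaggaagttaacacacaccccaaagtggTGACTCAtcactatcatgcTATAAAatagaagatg
Mmp14: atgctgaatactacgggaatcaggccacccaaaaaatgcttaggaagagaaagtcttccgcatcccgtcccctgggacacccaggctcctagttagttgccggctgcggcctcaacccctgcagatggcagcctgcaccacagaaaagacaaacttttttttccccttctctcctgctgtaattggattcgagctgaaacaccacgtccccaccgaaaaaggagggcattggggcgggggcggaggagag
Timp1: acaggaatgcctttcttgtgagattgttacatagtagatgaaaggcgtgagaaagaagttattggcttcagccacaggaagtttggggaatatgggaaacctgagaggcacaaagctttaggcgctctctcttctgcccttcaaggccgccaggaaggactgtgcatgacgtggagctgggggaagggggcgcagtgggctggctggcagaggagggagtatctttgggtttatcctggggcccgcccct

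Both strands of the 7 promoters, each with 50 further bases after the start site, were searched for AP-1 (TGANTCA), STAT6 (TTCNNNNGAA), GAS (TTCNNNGAA), E-box (CACGTG), κB (GGGNNNTTCC), E2F (TTTNGCGC), a PPAR site (AGGTCA) and the TATA box (TATAAA). The Mmp13 promoter held the AP-1 letters, which begin 35 bases before the start site, and the TATA letters. The Mmp8 promoter held the TATA letters on the minus strand, across the start site of its promoter entry, and no other match was found. The 250 bases before that start site end at chr9:7558428, upstream of the gene start of Mmp8 given above. Of 32851 promoters of this length, 7.81% held the AP-1 letters and 13.6% the TATA letters, and for the other motifs the share ran from 1.38% (E2F) to 16.3% (PPAR site). The matches describe these windows only.

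**Figure D1:**
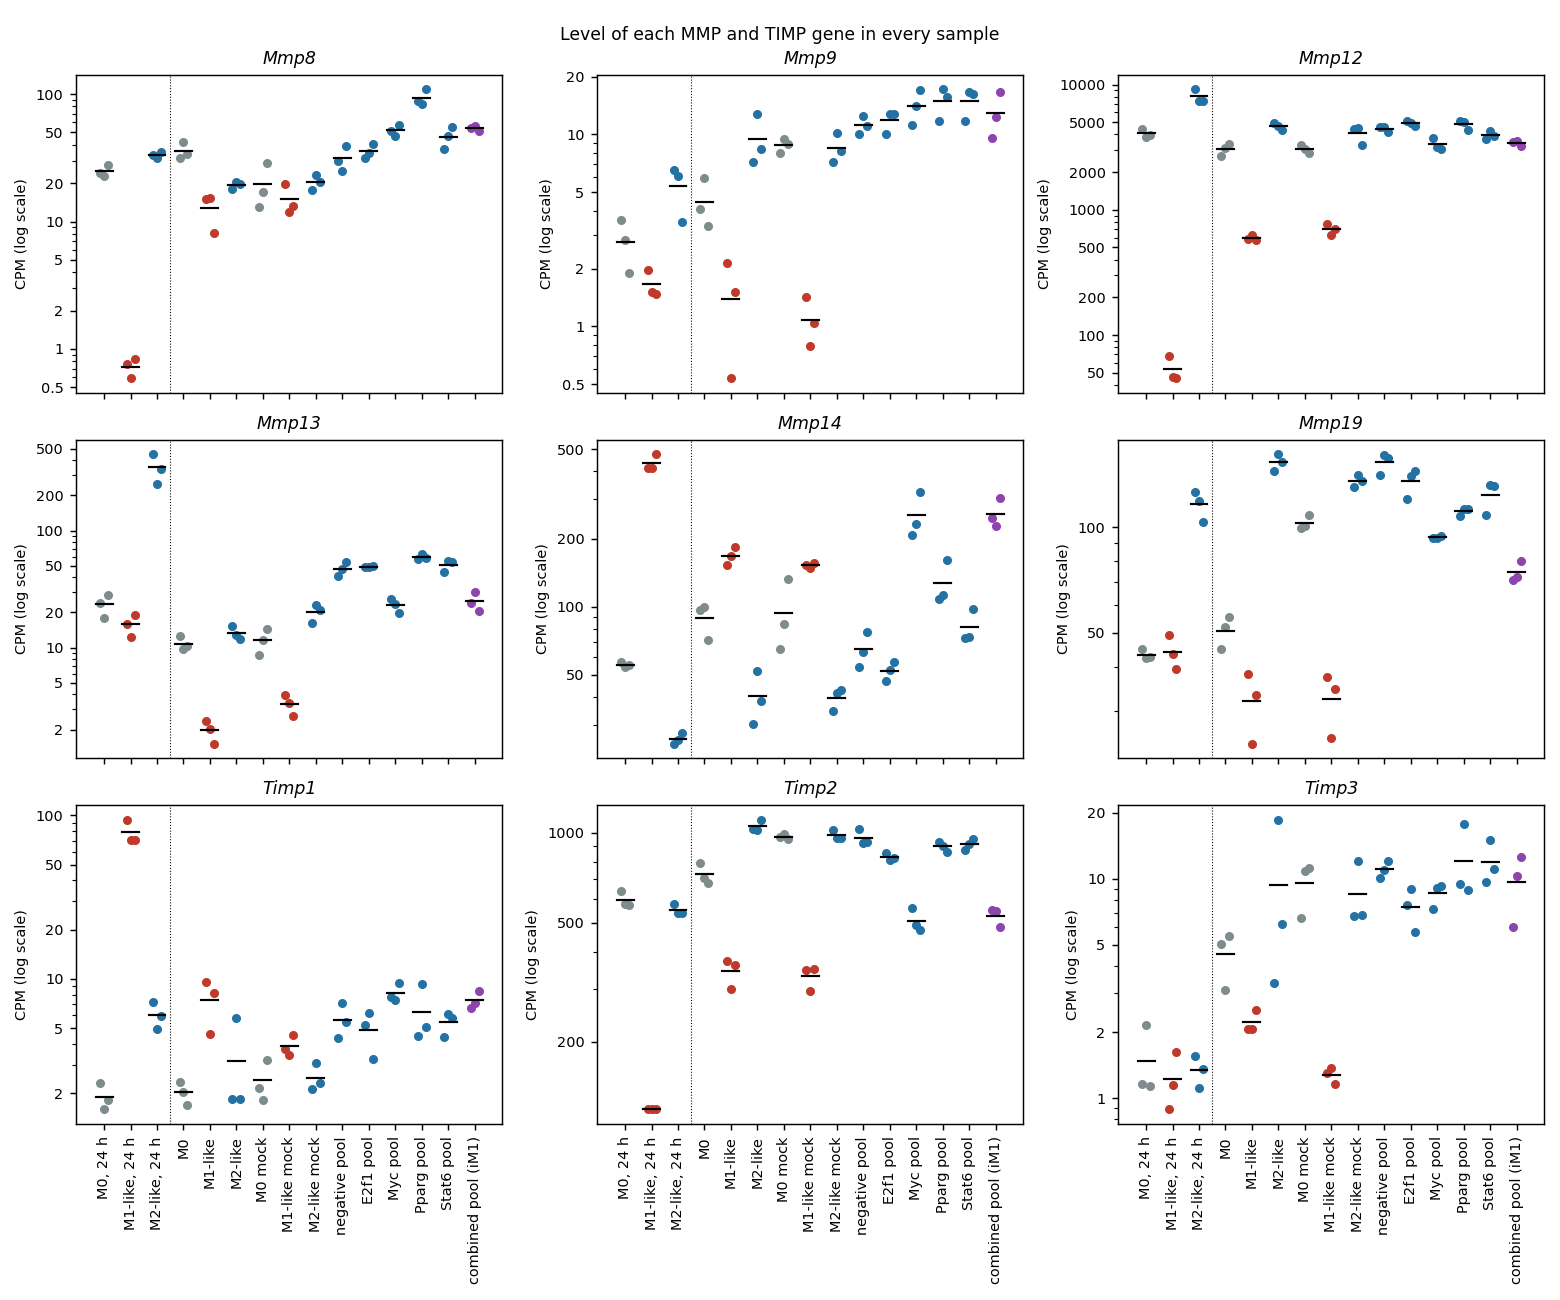
CPM of each of the 9 genes in every sample, on log axes. Points are samples, black lines are means of 3, the dotted line divides the polarization from the reprogramming experiment, and colours mark M0 (grey), M1-like (red), M2-like (blue) and iM1 (purple). Mmp12 ranges from 45.1 CPM in M1-like to 9215 CPM in M2-like samples at 24 h.

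After 24 h of LPS and IFNγ, Mmp8, Mmp9, Mmp12 and Timp2 were lower than in M0 and Mmp14 and Timp1 were higher. Mmp13 was called lower as well when the mouse was added to the model as a replicate block. With IL-4, Mmp8, Mmp9, Mmp12, Mmp13, Mmp19 and Timp1 were higher than in M0 and Mmp14 was lower. The largest difference was that of Mmp12, 151-fold lower with LPS and IFNγ than with IL-4. By edgeR's quasi-likelihood test with Benjamini-Hochberg adjustment (threshold 0.05), 6 of 9 members differed between M1-like and M0 (2 higher and 4 lower; 73% of all genes tested), 7 between M2-like and M0 (6 higher and 1 lower; 28.1%) and 8 between M1-like and M2-like (2 higher and 6 lower; 72.7%). The shares in the comparisons with M1-like cells were near those of all genes. The median log2 fold change of the members was −0.56, 0.96 and −1.70, beside −0.04, 0.00 and −0.06 over all genes. The 3 comparisons share samples. These tests and the fits without 1 sample had no term for the mouse, which pairs the samples of the 3 conditions. In RNA of whole cultures, fewer cells of a type and less RNA per cell cannot be told apart. Fibroblast markers summed to 21.0 to 34.3 CPM in M0, 9.40 to 12.6 CPM in M1-like and 16.5 to 22.6 CPM in M2-like samples. Mast cell and eosinophil markers summed to 17.1 to 20.2 CPM, 1.91 to 3.08 CPM and 14.96 to 19.2 CPM. Single markers went both ways. Of 5 fibroblast markers tested, 1 was higher and 4 were lower in M1-like cells than in M0. Against M2-like cells Dcn was higher and 4 were lower. Of 4 mast cell and eosinophil markers tested, 1 was higher and 3 were lower than in M0. Against M2-like cells Kit was higher and 2 were lower. Their part in the results was not tested.

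Mmp12, the elastase, stood at 4441, 3798 and 3967 CPM in M0, at 68.5, 45.9 and 45.1 CPM in M1-like and at 9215, 7451 and 7456 CPM in M2-like samples. The 3 groups did not overlap. M1-like cells were 76.6-fold below M0 (log2 fold change −6.26 ± 0.18, adjusted p = 8.7e-12; errors of fold changes are SE), and M2-like cells were 1.98-fold above it (0.98 ± 0.15, adjusted p = 0.00042). Per kilobase of exon, Mmp12 had the highest level of the 9 genes in M0 (562 CPM per kb) and M2-like cells (1111 CPM per kb) and ranked below 4 of the others in M1-like cells (7.35 CPM per kb).

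The collagenases parted. Mmp13 stood at 24.2, 17.9 and 28.1 CPM in M0, 16.1, 12.3 and 19.1 CPM in M1-like and 448, 252 and 339 CPM in M2-like samples. M2-like samples lay above all others, 14.8-fold over M0 (3.89 ± 0.26, adjusted p = 1.1e-05), whereas M1-like and M0 samples overlapped (−0.56 ± 0.25, adjusted p = 0.069). With the mouse as a replicate block this last difference passed (−0.56, adjusted p = 0.0011), as it did without M0 replicate 2 (−0.72) or M1-like replicate 3 (−0.72). Mmp8 stood at 23.95, 22.8 and 27.8 CPM in M0, 0.757, 0.587 and 0.832 CPM in M1-like and 33.2, 31.4 and 35.3 CPM in M2-like samples. No groups overlapped: Mmp8 was 33.9-fold lower in M1-like than in M0 cells (−5.08 ± 0.13, adjusted p = 2.8e-12) and 1.34-fold higher in M2-like cells (0.42 ± 0.09, adjusted p = 0.004). Neutrophil markers summed to 9.58 to 14.4 CPM in M1-like and 6.88 to 8.57 CPM in M0 samples. Of the 10 markers 4 were tested, of which 2 were higher and 2 lower in M1-like cells than in M0. Ly6g had reads in M1-like cells and none in M0. The part of these markers' cells in the result was not tested.

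Mmp14, the membrane-anchored activator, was the only one of the 6 MMPs with a higher level after LPS and IFNγ than after IL-4 (log2 fold change 4.06 ± 0.08, adjusted p = 2.7e-13). It stood at 57.1, 54.0 and 54.9 CPM in M0, 415, 413 and 474 CPM in M1-like and 24.7, 25.6 and 27.5 CPM in M2-like samples, again without overlap. The rise with LPS and IFNγ was 7.85-fold (2.97 ± 0.07, adjusted p = 2.0e-12), and with IL-4 the level was 2.13-fold lower (−1.09 ± 0.07, adjusted p = 6.7e-07). Mmp19 stood at 45.0, 42.3 and 42.7 CPM in M0 and 126, 119 and 104 CPM in M2-like samples, all higher (1.42 ± 0.09, adjusted p = 4.3e-07). Its M1-like samples, at 49.4, 43.7 and 39.6 CPM, overlapped M0 (0.03 ± 0.09, adjusted p = 0.79).

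Mmp9, the gelatinase, was low in all 9 samples. It stood at 3.56, 2.82 and 1.89 CPM in M0, 1.97, 1.51 and 1.48 CPM in M1-like and 6.55, 6.08 and 3.500 CPM in M2-like samples, and M1-like samples lay below M2-like ones (−1.70 ± 0.27, adjusted p = 8.8e-05). M0 overlapped both groups, although in each mouse the M1-like sample lay below the M0 sample and the M2-like sample above it. The lower level in M1-like cells against M0 (−0.74 ± 0.28, adjusted p = 0.028) did not pass without M0 replicate 1 (−0.49) or 2 (−0.72) or M1-like replicate 2 (−0.68) or 3 (−0.66). The higher level in M2-like cells (0.96 ± 0.25, adjusted p = 0.013) did not pass without M0 replicate 3 (0.75) or M2-like replicate 1 (0.80).

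Among the inhibitors, LPS and IFNγ left Timp1 higher and Timp2 lower than in M0. Timp1 stood at 2.30, 1.60 and 1.82 CPM in M0, 93.9, 70.9 and 70.8 CPM in M1-like and 7.22, 4.95 and 5.97 CPM in M2-like samples, with no overlap. Against M0 it was 41.2-fold higher in M1-like cells (5.36 ± 0.18, adjusted p = 2.9e-11) and 3.16-fold higher in M2-like cells (1.66 ± 0.18, adjusted p = 4.3e-05). Timp2 stood at 638, 578 and 573 CPM in M0, 119, 119 and 119 CPM in M1-like and 579, 539 and 539 CPM in M2-like samples. It was 5.005-fold lower in M1-like cells than in M0 (−2.32 ± 0.07, adjusted p = 6.2e-12), and M2-like samples overlapped M0 (−0.11 ± 0.06, adjusted p = 0.21). Timp3, an inhibitor that binds to the matrix, lay between 0.892 and 2.14 CPM in the 9 samples and passed in none of these comparisons. Per kilobase, Timp2 was the most abundant inhibitor in M0 (153 CPM per kb) and M2-like cells (142 CPM per kb), and Timp1 was the most abundant of all 9 genes in M1-like cells (88.4 CPM per kb).

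In the reprogramming experiment, untransfected M1-like cells differed from M0 in 8 members (2 higher and 6 lower; 57.5% of all genes) and from M2-like cells in 8 (2 higher and 6 lower; 61.2%). Untransfected M2-like cells differed from M0 in 6 (4 higher and 2 lower; 19.6%). Among mock cells, 7 members differed between M1-like and M0 (1 higher and 6 lower; 60.1%), 7 between M1-like and M2-like (1 higher and 6 lower; 60.5%) and 4 between M2-like and M0 (3 higher and 1 lower; 3.66%). Both experiments were normalized apart and differ in read length and sequencing site, so their values are set side by side without a test.

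Mmp12 was again lowest in M1-like cells. Mock samples held 765, 633 and 708 CPM in M1-like and 4444, 4535 and 3302 CPM in M2-like cells, apart by 5.83-fold (−2.54 ± 0.11, adjusted p = 1.1e-20). Mmp8, which had differed 45.4-fold at 24 h, stood at 19.8, 11.8 and 13.2 CPM in M1-like mock and 17.7, 23.3 and 20.6 CPM in M2-like mock samples, which overlapped (−0.46 ± 0.25, adjusted p = 0.12). Without M1-like mock replicate 1 this difference passed (−0.72, adjusted p = 0.03). Mmp13 held 3.91, 3.39 and 2.61 CPM against 16.3, 23.2 and 20.9 CPM (−2.60 ± 0.19, adjusted p = 1.9e-13). Its M2-like level was below the 448, 252 and 339 CPM of the 24 h samples, although those were scaled in another experiment. Mmp14 stood at 153, 149 and 156 CPM in M1-like mock and 34.6, 41.3 and 42.8 CPM in M2-like mock samples (1.95 ± 0.23, adjusted p = 8.8e-08), and Mmp19 at 37.5, 25.1 and 34.7 CPM and 130.3, 141 and 136 CPM (−2.07 ± 0.12, adjusted p = 3.5e-16). These groups did not overlap.

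Timp2 kept its lower level in M1-like mock cells, at 348, 294 and 351 CPM against 1025, 958 and 957 CPM (−1.57 ± 0.08, adjusted p = 9.5e-18). Timp1 stood at 3.75, 3.44 and 4.53 CPM against 2.11, 3.08 and 2.30 CPM, apart but not past the threshold (0.64 ± 0.36, adjusted p = 0.13). In untransfected cells Timp1 was higher in M1-like samples, 9.52, 4.62 and 8.20 CPM against 1.86, 5.74 and 1.85 CPM (1.23 ± 0.33, adjusted p = 0.0021). Without M2-like replicate 2 this value was 2.004, adjusted p = 7.3e-06.

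**Figure D2:**
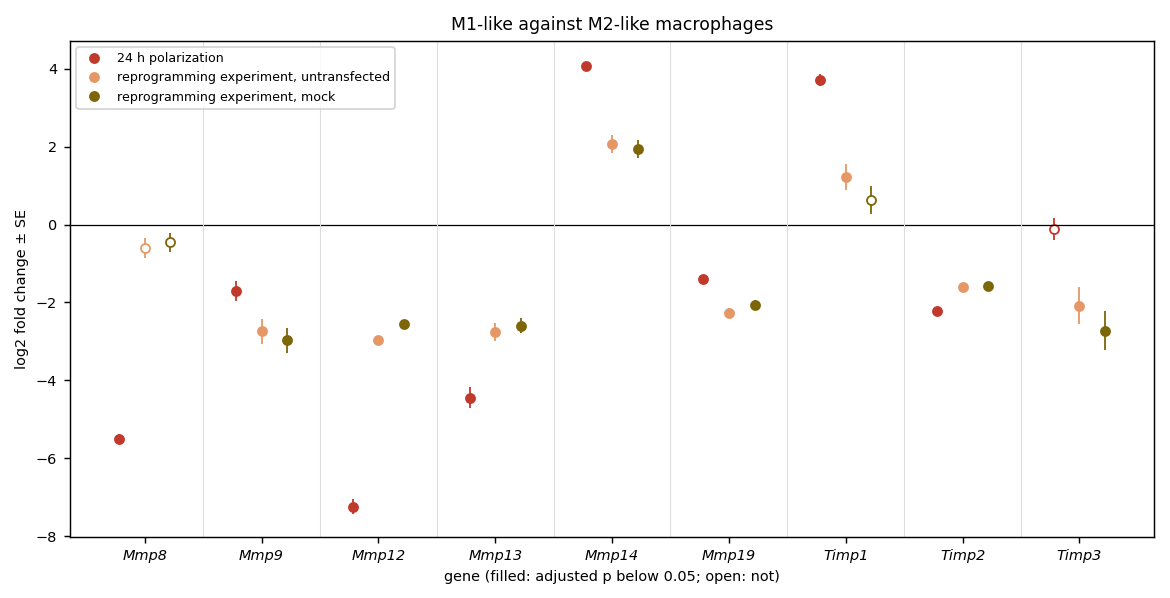
M1-like over M2-like log2 fold changes of each gene with bars of 1 SE, in the 24 h samples and in the untransfected and mock samples of the reprogramming experiment; filled points passed an adjusted p of 0.05. Mmp8 lies at −5.50 at 24 h and −0.46 in mock cells, and Timp3 at −0.11 and −2.73.

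M2-like mock cells differed from M0 mock in Mmp12 (0.42 ± 0.10, adjusted p = 0.012), Mmp13 (0.79 ± 0.16, adjusted p = 0.0033) and Mmp19 (0.40 ± 0.11, adjusted p = 0.038), all higher, and in Mmp14, which was lower (−1.25 ± 0.23, adjusted p = 0.0021). Mmp12 did not pass without M0 mock replicate 3 (0.37) or M2-like mock replicate 1 (0.35) or 2 (0.34). Mmp19 did not pass without M0 mock replicate 1 (0.38) or 2 (0.39) or M2-like mock replicate 1 (0.43), 2 (0.37) or 3 (0.40). Untransfected M2-like cells had less Mmp8 than M0 (−0.89 ± 0.24, adjusted p = 0.011), a call lost without M0 replicate 2 (−0.76). The higher Mmp14 of M1-like than of M0 mock cells (0.70 ± 0.22, adjusted p = 0.0086) was lost without M0 mock replicate 1 (0.50).

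Timp3 and Mmp9 were lower in M1-like cells of the reprogramming experiment, and fibroblast and mesothelial markers were lower in the same samples. Timp3 held 1.30, 1.37 and 1.16 CPM in M1-like mock and 6.79, 12.1 and 6.83 CPM in M2-like mock samples (−2.73 ± 0.51, adjusted p = 4.9e-05). Mmp9 held 1.41, 0.786 and 1.04 CPM and 7.17, 10.2 and 8.16 CPM (−2.98 ± 0.33, adjusted p = 5.6e-09). Neither gene's groups overlapped. All 6 fibroblast markers were lower in the same comparison, with sums of 22.2 to 43.7 CPM against 174 to 280.0 CPM, and the 7 mesothelial markers summed to 0.491 to 1.16 CPM against 14.4 to 29.3 CPM. Mast cell and eosinophil markers summed to 1.13 to 1.63 CPM against 21.3 to 22.7 CPM. The part of these markers' cells in the results was not tested.

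Untransfected M2-like replicate 2 stood apart in the same genes, and also in Timp1 and Mmp14. Its fibroblast sum was 384 CPM beside 113 and 188 CPM in replicates 1 and 3. In the order of the replicates, Timp3 stood at 3.36, 18.6 and 6.22 CPM and Mmp9 at 7.15, 12.8 and 8.40 CPM. Timp1 stood at 1.86, 5.74 and 1.85 CPM and Mmp14 at 30.1, 51.8 and 38.2 CPM. Mmp8 (17.9, 20.3 and 19.6 CPM) and Mmp19 (145, 161 and 153 CPM) were also highest in replicate 2, by less. Mmp12, Mmp13 and Timp2 were not highest in replicate 2. Against untransfected M1-like cells, at 2.08, 2.07 and 2.52 CPM, Timp3 was lower in M1-like cells with all samples (−2.08 ± 0.47, adjusted p = 0.00046) and without replicate 2 (−1.11, adjusted p = 0.022). Against M0, the higher Mmp9 of M2-like cells (1.08 ± 0.27, adjusted p = 0.0049) did not pass without it (0.79, adjusted p = 0.059), and Timp3 went from 1.07 ± 0.43, adjusted p = 0.083 to 0.10, adjusted p = 0.91, and without replicate 1 it was 1.46, adjusted p = 0.011.

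**Figure D3:**
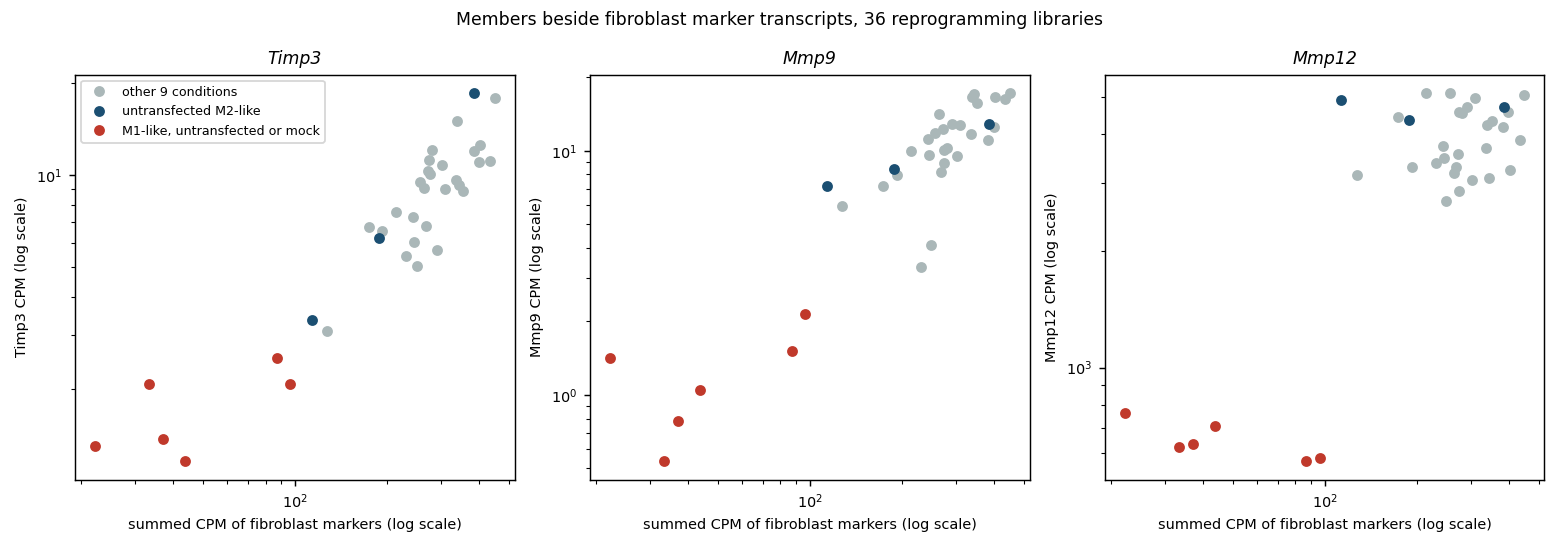
CPM of Timp3, Mmp9 and Mmp12 against the summed CPM of 6 fibroblast markers in the 36 reprogramming libraries, all axes log. The 6 M1-like libraries (red) have the lowest fibroblast sums, 22.2 to 96.1 CPM; untransfected M2-like libraries are dark blue and the other conditions grey.

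M0 mock cells differed from untransfected M0 cells in 4 members (3 higher and 1 lower; 20.1% of all genes). Mmp19 stood at 99.7, 101 and 108 CPM against 44.9, 51.9 and 55.5 CPM (1.02 ± 0.12, adjusted p = 5.7e-08), and Timp2 at 968, 988 and 949.5 CPM against 791, 706 and 678 CPM (0.42 ± 0.08, adjusted p = 0.00022). Neither overlapped. As the harvest time of untransfected cells was not given, the reagent and the time in culture cannot be told apart here. Mmp9 was higher (0.97 ± 0.27, adjusted p = 0.0097), a call lost without untransfected M0 replicate 3 (0.80). Mmp8 was lower (−0.86 ± 0.24, adjusted p = 0.012), a call lost without untransfected M0 replicate 2 (−0.73) or M0 mock replicate 1 (−0.64) or 2 (−0.76). M1-like mock and untransfected cells differed in 0 members by edgeR (0% of all genes) and 0 by DESeq2, with 3 at an unadjusted p under 0.05. M2-like mock and untransfected cells differed in 0 by edgeR (1.79%) and 1 by DESeq2, with 1 at an unadjusted p under 0.05. That member was Mmp13, at 16.3, 23.2 and 20.9 CPM in mock and 15.5, 12.9 and 11.8 CPM in untransfected cells (0.59 ± 0.16, adjusted p = 0.053 by edgeR), and it passed without replicate 1 of mock (0.72) or of untransfected cells (0.70). In tests of whether the difference between mock and untransfected cells was itself different, 2 members passed for M1-like against M0 (8.86% of all genes) and the same 2, Mmp19 and Timp2, for M2-like against M0 (5.52%). For M1-like against M2-like, 0 passed by edgeR (1.03%) and 0 by DESeq2, with 1 at an unadjusted p under 0.05.

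Against M2-like mock cells the negative siRNA pool raised 3 members (11.4% of all genes passed). Mmp13 stood at 41.0, 46.6 and 54.5 CPM against 16.3, 23.2 and 20.9 CPM in mock cells, without overlap (1.24 ± 0.15, adjusted p = 7.8e-07). Timp1 stood at 4.33, 7.14 and 5.49 CPM against 2.11, 3.08 and 2.30 CPM (1.17 ± 0.35, adjusted p = 0.026) and Mmp14 at 54.3, 63.2 and 76.9 CPM against 34.6, 41.3 and 42.8 CPM (0.71 ± 0.23, adjusted p = 0.049). Timp1 did not pass without mock replicate 1 (1.06) or 3 (1.12) or negative pool replicate 2 (0.98) or 3 (1.19). Mmp14 did not pass without mock replicate 1 (0.62), 2 (0.75) or 3 (0.77) or negative pool replicate 2 (0.73) or 3 (0.57). Mast cell and eosinophil markers summed to 38.4 to 42.2 CPM in negative pool and 21.3 to 22.7 CPM in mock samples. The sums were 275 to 398 CPM and 174 to 280.0 CPM for fibroblast markers, which overlapped, and 12202 to 13189 CPM and 14555 to 15901 CPM for macrophage markers. The part of these markers' cells in the results was not tested. The pools that follow were compared with the negative pool and share its 3 samples.

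In iM1 cells, Mmp14 and Mmp8 rose and Mmp12, Mmp13, Mmp19 and Timp2 fell against the negative pool. These 6 of 9 members (2 higher and 4 lower) stand beside 26.3% of all genes, and the median log2 fold change was −0.19 for the members and 0.01 for all genes. Mmp14 held 247, 227 and 303 CPM against 54.3, 63.2 and 76.9 CPM, 3.99-fold higher (1.998 ± 0.23, adjusted p = 3.9e-07). Mmp19 held 71.0, 72.4 and 80.2 CPM against 141, 161 and 158 CPM (−1.04 ± 0.11, adjusted p = 2.9e-08), and Timp2 550.1, 546 and 484 CPM against 1025, 924 and 932 CPM (−0.87 ± 0.08, adjusted p = 8.7e-10). All 3 were without overlap. Mmp12 changed less, from 4580, 4554 and 4180 CPM to 3468, 3552 and 3234 CPM (−0.38 ± 0.10, adjusted p = 0.0046).

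Of the collagenases in iM1 cells, Mmp8 held 53.9, 56.0 and 51.3 CPM against 29.7, 24.9 and 39.2 CPM (0.78 ± 0.23, adjusted p = 0.013), a call lost without negative pool replicate 2 (0.64, adjusted p = 0.074). Mmp13 held 24.03, 29.8 and 20.7 CPM against 41.0, 46.6 and 54.5 CPM (−0.93 ± 0.15, adjusted p = 1.3e-05). Against mock cells, over which the negative pool itself had raised Mmp13, iM1 cells did not differ past the threshold (0.31 ± 0.15, adjusted p = 0.12; 0.15 without iM1 replicate 2 and 0.17 without mock replicate 1). It passed without iM1 replicate 3 (0.42, adjusted p = 0.046). Timp1 overlapped the negative pool (0.40 ± 0.31, adjusted p = 0.37; 0.24 without negative pool replicate 1), as did Timp3 (−0.19 ± 0.38, adjusted p = 0.76) and Mmp9 (0.20 ± 0.24, adjusted p = 0.57). None of the 6 fibroblast markers passed, and their sums were 245 to 402 CPM in iM1 and 275 to 398 CPM in negative pool samples. Mesothelial markers summed to 11.7 to 19.5 CPM in iM1 and 21.4 to 30.7 CPM in negative pool samples, without overlap, and 1 of the 5 tested was called (Upk3b, lower). Of 3 neutrophil markers tested, Ltf and Cxcr2 were lower, with sums of 5.85 to 8.04 CPM against 6.94 to 9.09 CPM, and of the 6 macrophage markers Mertk was lower. The part of these markers' cells in the results was not tested.

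With M2-like mock as the reference, 6 members differed in iM1 cells (3 higher and 3 lower; 36.8% of all genes). Timp1 was then higher, at 6.61, 7.17 and 8.45 CPM against 2.11, 3.08 and 2.30 CPM (1.57 ± 0.34, adjusted p = 0.00055), and Mmp14 was 6.55-fold higher (2.71 ± 0.24, adjusted p = 1.5e-09). The lower Mmp12 (−0.26 ± 0.10, adjusted p = 0.038) was lost without iM1 replicate 1 (−0.27) or 3 (−0.22) or mock replicate 1 (−0.20) or 2 (−0.18).

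Set beside the M1-like against M2-like mock comparison, which shares no samples with it, the comparison of iM1 with the negative pool had the same direction for Mmp12, Mmp13, Mmp14, Mmp19 and Timp2. These are 5 of the 6 members called in iM1 and 5 of the 7 called in mock cells. Over all genes, 2375 were called in the same direction in both, 63.8% of those called in iM1 and 27.7% of those called in mock cells. With M2-like mock as the reference in place of the negative pool, Mmp13 went the other way (0.31 ± 0.15, adjusted p = 0.12). The sizes were 1.998 in iM1 and 1.95 in mock cells for Mmp14, and −0.38 and −2.54 for Mmp12. For Mmp19 they were −1.04 and −2.07. The differences between these sizes were not tested.

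**Figure D4:**
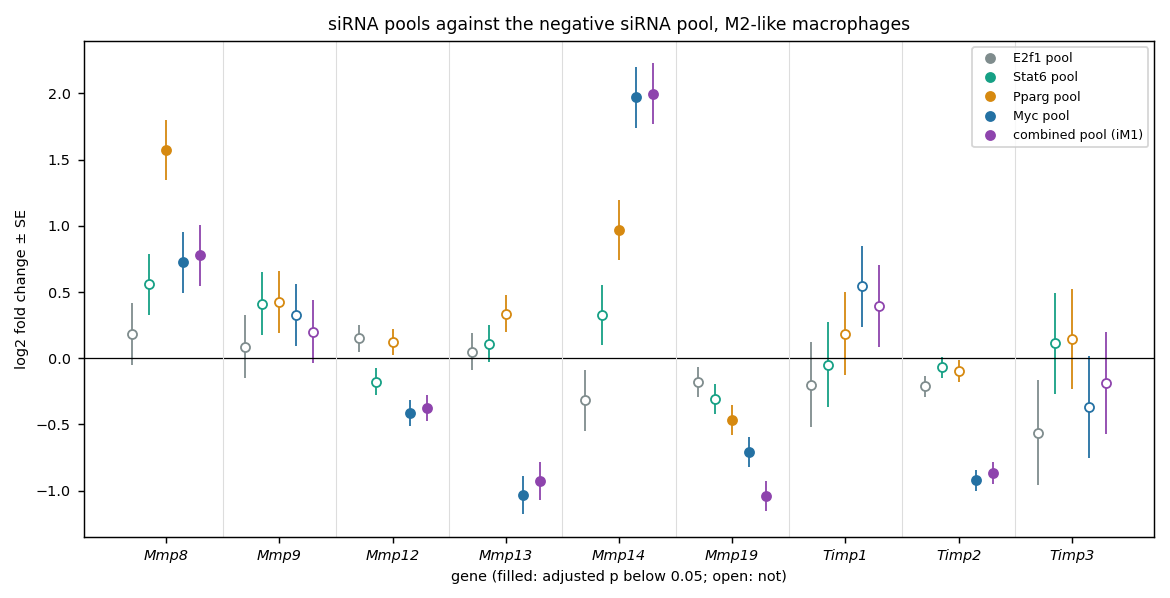
Log2 fold change against the negative siRNA pool for each gene under the E2f1, Myc, Pparg, Stat6 and combined pools, with bars of 1 SE; filled points passed an adjusted p of 0.05. For Mmp14 the Myc pool lies at 1.97 and the combined pool at 1.998, and the highest value of Mmp8, 1.57, belongs to the Pparg pool.

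The Myc pool alone changed 6 members against the negative pool (2 higher and 4 lower; 29.3% of all genes). Mmp14 held 208, 232 and 324 CPM (1.97 ± 0.23, adjusted p = 4.2e-07), Mmp13 25.8, 23.6 and 19.9 CPM (−1.03 ± 0.15, adjusted p = 2.3e-06) and Timp2 558, 490.0 and 472 CPM (−0.92 ± 0.08, adjusted p = 2.5e-10). All were apart from the negative pool. Mmp19 (−0.71 ± 0.11, adjusted p = 1.2e-05) and Mmp12 (−0.41 ± 0.10, adjusted p = 0.0017) were lower, and Mmp8 was higher (0.72 ± 0.23, adjusted p = 0.018), a call lost without Myc pool replicate 3 (0.64) or negative pool replicate 1 (0.69) or 2 (0.59). In the same comparison 4 of 6 macrophage markers, 3 of 5 mesothelial and 2 of 3 neutrophil markers tested were lower. Their sums in Myc and negative pool samples were 11456 to 11681 CPM and 12202 to 13189 CPM (macrophage), 11.7 to 15.6 CPM and 21.4 to 30.7 CPM (mesothelial) and 4.65 to 6.92 CPM and 6.94 to 9.09 CPM (neutrophil). Their part in the results was not tested. Compared directly, the combined and the Myc pool differed in 0 members by edgeR (0.0423% of all genes) and 0 by DESeq2, with 1 at an unadjusted p under 0.05. It was Mmp19, whose iM1 values lay below the 93.2, 93.2 and 94.6 CPM of the Myc pool (−0.33 ± 0.11). For Mmp14 the difference was 0.03 ± 0.22 and for Timp2 0.06 ± 0.08. By the paper's methods, siRNA against Myc came from Dharmacon and that against E2f1, Pparg and Stat6 from siTools Biotech. The source of the negative pool was not given there. The part of the supplier in the results of the Myc and combined pools was not tested.

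The Pparg pool changed 3 members (2 higher and 1 lower; 5.67% of all genes). Mmp8 held 87.8, 83.0 and 109.6 CPM, above every other condition of the experiment and 2.98-fold over the negative pool (1.57 ± 0.23, adjusted p = 5.7e-05). Neutrophil markers summed to 5.49 to 8.68 CPM in these samples and 6.94 to 9.09 CPM in the negative pool. Mmp14 held 109, 113 and 161 CPM (0.97 ± 0.23, adjusted p = 0.0097), a call lost without Pparg pool replicate 3 (0.77) or negative pool replicate 1 (0.86). Mmp19 was lower, at 108, 113 and 112 CPM (−0.46 ± 0.11, adjusted p = 0.0095). The E2f1 pool changed 0 members by edgeR (0.882% of all genes) and 0 by DESeq2, with 1 at an unadjusted p under 0.05, and the Stat6 pool 0 by edgeR (1.46%) and 0 by DESeq2, with 2 at an unadjusted p under 0.05.

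Directly against single pools, iM1 cells differed in 5 members from the E2f1 pool (1 higher and 4 lower; 21.3% of all genes), in 6 from the Pparg pool (1 higher and 5 lower; 17.8%) and in 4 from the Stat6 pool (1 higher and 3 lower; 21.9%). Mmp14 was higher in iM1 cells in all 3 comparisons (2.32 ± 0.23, 1.03 ± 0.22 and 1.67 ± 0.23), and Mmp13, Mmp19 and Timp2 were lower in all 3. Mmp8 was lower in iM1 cells than under the Pparg pool (−0.80 ± 0.22, adjusted p = 0.013), a call lost without iM1 replicate 3 (−0.76) or Pparg pool replicate 3 (−0.67).

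Against M1-like mock cells, iM1 cells were higher in all 9 members (52.8% of all genes passed). Mmp12 held 3468, 3552 and 3234 CPM against 765, 633 and 708 CPM (2.28 ± 0.10, adjusted p = 4.6e-19), and Mmp14 247, 227 and 303 CPM against 153, 149 and 156 CPM (0.76 ± 0.22, adjusted p = 0.005). Timp2 was 1.59-fold higher (0.67 ± 0.08, adjusted p = 1.8e-08). Timp1 was 1.90-fold higher (0.93 ± 0.32, adjusted p = 0.014), a call lost without M1-like mock replicate 2 (0.84) or iM1 replicate 3 (0.82). For Mmp9 (3.57 ± 0.32, adjusted p = 1.0e-10) and Timp3 (2.91 ± 0.50, adjusted p = 2.2e-05), all 6 fibroblast markers were higher as well, with sums of 245 to 402 CPM in iM1 and 22.2 to 43.7 CPM in M1-like mock samples, and their part in the result was not tested.

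Over the 12 reprogramming conditions, the order of levels differed between members. Mmp14 was highest in iM1 cells (259 ± 39.6 CPM, SD, n = 3) and the Myc pool (255 ± 61.1 CPM), which overlapped each other and no other condition. Mmp8 was highest under the Pparg pool (93.5 ± 14.2 CPM), apart from iM1 cells, the next in order. Timp2 was highest in untransfected M2-like cells (1050 ± 47.7 CPM) and lowest in M1-like mock cells (331 ± 31.9 CPM). For Mmp12, Mmp19 and Timp2, iM1 cells and the Myc pool lay between the negative pool and M1-like mock cells. For Mmp13 they did so too, at 24.8 CPM in iM1 cells and 23.1 CPM under the Myc pool, below the negative pool at 47.4 CPM. These Mmp13 values overlapped those of M2-like mock cells (20.1 CPM), over which the negative pool itself had raised Mmp13.

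Of 18 other MMP and TIMP genes, 5 passed the filter in the polarization experiment, and 3 differed between M1-like and M2-like cells (2 higher and 1 lower; 72.7% of all genes). Mmp25, which is anchored in the membrane, held 10.8, 10.5 and 9.03 CPM in M1-like and 0.741, 0.3004 and 0.236 CPM in M2-like samples (4.62 ± 0.39, adjusted p = 3.3e-07). Mmp27, the gene next to Mmp8 on chromosome 9, held 0.540, 0.511 and 0.416 CPM and 7.36, 6.03 and 6.20 CPM (−3.74 ± 0.16, adjusted p = 3.4e-10), so that it too was lower in M1-like samples. Mmp2, a gelatinase, was higher in M1-like cells (0.70 ± 0.19, adjusted p = 0.0055). The other 6 genes of that run (Mmp1b, Mmp3, Mmp1a, Mmp10, Mmp20 and Mmp7) had condition means of at most 0.174 CPM in the polarization experiment. Their highest mean in the reprogramming experiment was 0.847 CPM, of Mmp3 in iM1 cells. In the reprogramming experiment 7 of the 18 passed the filter, and between iM1 cells and the negative pool Mmp25 alone was called, with 3 to 6 reads per iM1 library and 0 in the negative pool.

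All 13 genes for activation, partners and clearance of MMPs differed between M1-like and M2-like cells at 24 h (9 higher and 4 lower), beside 72.7% of all genes. Lcn2, one of these genes, was at 152 ± 26.2 CPM against 0.0990 ± 0.0456 CPM (SD, n = 3), and the transglutaminase gene Tgm2 at 1077 ± 160.0 CPM against 94.1 ± 3.89 CPM. In iM1 cells against the negative pool, 5 of the 13 were called (4 higher and 1 lower; 26.3% of all genes), among them Serpinb2 (1.55 ± 0.47, adjusted p = 0.016) and Plau, which codes for urokinase (0.92 ± 0.15, adjusted p = 3.8e-05). Of the ADAM and ADAMTS genes, a related family of metalloproteinases, 8 of 9 tested differed at 24 h (3 higher and 5 lower; 72.7% of all genes), with the sheddase gene Adam10 lower (−1.67 ± 0.07, adjusted p = 3.1e-10). In iM1 cells 4 of 11 were called (26.3% of all genes), all lower, with Adam15 the largest (−0.85 ± 0.09, adjusted p = 2.0e-08). Of the matrix substrates, 8 of 11 differed at 24 h (5 higher and 3 lower), the share found over all genes (72.7%), among them Thbs1 (5.68 ± 0.35, adjusted p = 9.7e-07), which codes for thrombospondin, and Fn1, fibronectin (−4.52 ± 0.17, adjusted p = 8.5e-11). In iM1 cells 2 of 12 were called (26.3% of all genes), Nid1 (−0.87 ± 0.26, adjusted p = 0.012) and Col6a1 (−0.79 ± 0.29, adjusted p = 0.048).

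Likeness of patterns was described by Pearson's r of log2 CPM over the 12 condition means of the reprogramming experiment, which come from shared libraries. Among the 36 pairs of members, r was highest for Mmp9 and Timp3 (0.969) and lowest for Mmp14 and Timp2 (−0.751). Of 11135 genes searched, the closest to Mmp8 was Zranb3 (r = 0.952). The closest to Mmp13 were Lpxn (r = 0.990) and Adk (r = 0.988) and to Mmp12 Pdp1 (r = 0.994) and Rmdn2 (r = 0.993). Those closest to Mmp9 were Cdh2 (r = 0.995) and Extl1 (r = 0.994), to Mmp14 Fiz1 (r = 0.968) and Tlr2 (r = 0.966) and to Mmp19 Eno2 (r = 0.979) and Wnt5a (r = 0.979). For the inhibitors they were Mpi (r = 0.956) and Mylk2 (r = 0.942) for Timp1, Maged1 (r = 0.988) and Ltbp3 (r = 0.986) for Timp2 and Bgn (r = 0.993) and Mrc2 (r = 0.991) for Timp3.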

How the data were processed

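RNA sequencing data of 54 libraries were used, 18 of the polarization experiment (50 nt reads) and 36 of the reprogramming experiment (150 nt, paired). The authors trimmed reads with Trimmomatic, mapped them to GRCm38/mm10 with TopHat2 and deposited raw counts per Ensembl gene from featureCounts. Versions, annotation release and strand setting are not given in the sources used here. Of the 39179 genes, 37693 had a symbol in the reference annotation.

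Technical libraries of 1 mouse and condition differed by about sampling noise (chi-square per gene 1.07 to 1.10, against 3.63 to 52.4 between mice) and were summed and counted as 1 sample. Replicates of a reprogramming condition differed by 4.48 to 22.97. Each experiment was fitted in 1 model with edgeR 4.0.16 in R 4.3.3 (filterByExpr with minimum count 10 and minimum total 15, TMM, two-sided quasi-likelihood test, Benjamini-Hochberg over 16110 and 14172 genes, threshold 0.05). CPM use TMM-scaled library sizes, and SEs of log2 fold changes were taken as their size over the square root of F. Alternatives were DESeq2 1.42.0, RLE size factors, other filters, a replicate block, separate technical replicates, only the compared groups, mock as the reference and leaving out each sample. The code was tested on simulated data. In the polarization experiment the mouse numbers of the labels pair the samples. Deviations from the condition means had a median correlation of 0.30 within a mouse and −0.15 between mice. The main fits had no term for the mouse, which entered only with the replicate block.

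All members are named. Up to 3 called genes per list with the largest change were named in 2 comparisons (M1-like against M2-like at 24 h, iM1 against the negative pool), and the 2 genes most like each member among those with a mean of at least 1 CPM (log2 CPM with a prior count of 2). Some genes that this rule names are not reported here. Marker genes, genes that overlap a member and the chromosome 9 neighbours are named for what they are or where they lie. Members and lists were chosen with earlier results of these data known. Figures were drawn with matplotlib 3.10.9 in Python 3.11.15.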

Additional observations from a re-analysis of the deposited data

Results flagged for a closer look

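The difference between mock and untransfected cells was not the same in M0 as in polarized cells for 2 members, by edgeR's test of the difference itself. For Mmp19 the log2 fold change of mock over untransfected cells in M1-like minus that in M0 cells was −0.999 ± 0.17, adjusted p = 0.00012, and that in M2-like minus that in M0 cells was −1.19 ± 0.16, adjusted p = 1.2e-05. For Timp2 the same differences were −0.48 ± 0.11, adjusted p = 0.0054, and −0.52 ± 0.11, adjusted p = 0.0044. Mmp19 stood at 37.5, 25.1 and 34.7 CPM in M1-like mock and 38.2, 24.2 and 33.3 CPM in untransfected M1-like samples, and Timp2 at 348, 294 and 351 CPM and 374, 299 and 362 CPM. All of these tests share the M0 samples, and the reagent and the time in culture cannot be told apart in them.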

How the results depend on the processing

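Of 170 recounts of called members under alternatives that kept all samples, 160 stayed within 1.5 times the reported count, and of 180 that left out 1 sample, 171 did. With only the compared groups in the model, 1 member was called for M2-like mock against M0 mock and 2 for the E2f1 pool. DESeq2 and RLE size factors each called 1 for M2-like mock against untransfected M2-like cells, and DESeq2 called 5 for the change of the mock-to-untransfected difference between M1-like and M0 cells. Without a filter the negative pool against mock had 1. With mock as the reference the E2f1, Pparg and Stat6 pools had 3, 5 and 5 members. Leaving out 1 sample gave 2 to 3 members for M2-like mock against M0 mock, 0 to 1 for M2-like mock against untransfected cells, 1 to 3 for the negative pool against mock and 2 to 4 for that change.

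With mock as the reference, Mmp13 became 0.31 under the combined pool and 0.20 under the Myc pool, Timp3 0.0022 under the Myc pool and Timp1 1.13 under the Stat6 pool. Without 1 sample, values that changed sign ran over −0.045 to 0.16 (Mmp13, E2f1 pool), −0.24 to 0.38 (Timp1, Pparg pool) and −0.21 to 0.15 (Timp1, Stat6 pool), and for iM1 against the Myc pool over −0.018 to 0.13 (Mmp8), −0.35 to 0.041 (Mmp9), −0.015 to 0.13 (Mmp12), −0.053 to 0.22 (Mmp13), −0.10 to 0.24 (Mmp14) and −0.054 to 0.42 (Timp3). None of the values that changed sign without 1 sample was called with all samples. Not listed are 80 of the 243 pairs of member and comparison, which were called under no setting. Of these, 40 changed sign under at least 1 alternative, with reported log2 fold changes of at most 0.65 in size. The causes were not tested.

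In the reprogramming experiment the replicate numbers are shared only as numbers, though 35 of 36 samples correlated best with their own number. With the replicate block, 4 members passed for that change between M1-like and M0 cells, Mmp8 (1.10) and Mmp9 (−1.39) being added. Timp3 in M0 mock against untransfected cells (1.05), Mmp9 in iM1 against mock (0.59), Mmp8 in iM1 against the E2f1 pool (0.60) and Mmp9 in the change between M2-like and M0 cells (−1.12) also passed, and no call of a member was lost.

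Counts over all genes moved by over 1.5 times for the E2f1 pool (125 reported, 1636 with mock as the reference, 476 with only the compared groups, 237 with the block), the Stat6 pool (207, 1616, 340 and 374), the Pparg pool (803 and 2422 with mock), M2-like mock against M0 mock (519, 122 with only the compared groups, 881 with the block), iM1 against the Myc pool (6 and 10 with DESeq2 or no filter), the changes of the mock-to-untransfected difference with only the compared groups (1255 and 740 for M1-like, 782 and 488 for M2-like against M0) and M2-like against M0 at 24 h (4530 and 7192 with technical replicates apart). Leaving out 1 sample gave 48 to 85 genes for the E2f1 pool, 93 to 145 for the Stat6 pool, 356 to 709 for the Pparg pool, 240 to 626 for M2-like mock against M0 mock, 3 to 5 for iM1 against the Myc pool, 1031 to 1522 for the negative pool against mock (1616 reported), 1665 to 1958 for iM1 against the Pparg pool (2519) and 2996 to 4701 for M2-like against M0 at 24 h. Depth limits members near 1 CPM. At 24 h these were Mmp8 and Mmp9 in M1-like cells and Timp3 in every condition. In the reprogramming experiment they were Mmp9 in untransfected M1-like cells (mean 1.40 CPM, 8 to 35 reads) and M1-like mock cells (1.08 CPM, 16 to 26 reads). Timp3 in M1-like mock cells (1.28 CPM, 20 to 28 reads) was another.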
